A study of Mus musculus with 54 samples.

Results

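The sites described here were 4931 of the 27751 TFE3 binding sites called in Flcn-deleted mouse liver after 9 days of FPC diet, a diet of fructose, palmitate and cholesterol. They were chosen by peak calls alone: a peak of the FPC LiFKO list had to share at least 1 bp with a peak of the FPC LiFKO+1c list, and with no peak of 4 other TFE3 lists, those of Control and LiFKO liver on normal chow and of Control and Control+1c liver on FPC diet. They made up 17.8% of the FPC LiFKO list and are called FPC-LiFKO sites below. Control mice carried floxed Flcn and an AAV8 virus that makes GFP from TBG, a hepatocyte promoter; LiFKO mice were floxed Flcn mice with the same virus making Cre, so Flcn was removed in hepatocytes of adult mice. The groups named +1c also received a virus for HA-tagged nSREBP-1c, the nuclear form of the lipogenic factor SREBP-1c, under the liver promoter ApoE/AAT. On FPC diet, TFE3 ChIP covered 3 libraries each of Control and LiFKO (2.5e11 genome copies of GFP or Cre virus) and of Control+1c and LiFKO+1c (1.5e11 of that virus and 1.0e11 of the HA-nSREBP-1c virus), all from mice with free access to food. On normal chow it covered 4 libraries each of Control and LiFKO, with 1.5e11 genome copies and no FPC diet. The series also held TFE3 ChIP of liver of mice that lacked Tfe3 in the whole body, with 2 libraries on chow and 1 on FPC diet. Each of these Control and LiFKO groups, with or without 1c, also had 1 input library.

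Expression was measured by RNA-seq in livers fasted for 4 to 6 hours, in 5 groups of 3 libraries: Control and LiFKO after 17 to 18.5 weeks of normal chow, and Control, LiFKO and DKO after as long on AMLN diet, a diet used to induce steatohepatitis. DKO mice had floxed Flcn, lacked Tfe3 in the whole body (Tfe3-/Y) and received the Cre virus, so they came from another line than the other groups, and line and genotype cannot be told apart. All RNA-seq mice received 1.5e11 genome copies of virus. No RNA-seq on FPC diet was analysed here, so no expression value comes from the diet, feeding state or mice in which the sites were called. The labels name separate libraries of a group and not the mice behind them, so p-values measure the spread between these libraries.

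TFE3 is a basic helix-loop-helix leucine zipper factor of the MiT/TFE family, whose dimers bind the palindromic E-box CACGTG and related letters, and which is known for driving lysosomal and autophagy genes. Folliculin, the product of Flcn, activates RagC and RagD, and these present TFE3 to mTORC1 on the lysosome; phosphorylated TFE3 is held in the cytoplasm. Without folliculin TFE3 enters the nucleus, and in liver it is known to act on oxidation and storage of lipid as well as on lysosomes. SREBP-1c binds sterol regulatory elements and E-boxes, and turns on fatty acid synthesis.

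Some features of the lists bear on all that follows. Each list pooled the libraries of a group, so a site has 1 score per list and no replicate error. The header of the FPC LiFKO list names among its pooled ChIP libraries one whose name holds input-KO, and as its background one of the same mouse number whose name holds TFE3-KO; the FPC Control and Control+1c headers show the same pattern, and the LiFKO+1c header does not. In the deposited table of tag values at 96 peaks, names that hold TFE3-KO belong to LiFKO libraries and not to liver without Tfe3. There the library whose name holds input-KO had a median tag value of 3.62, beside 3.55 and 3.61 in the other libraries of its group. Those peaks were selected as higher in LiFKO+1c, and 70 of them overlapped no peak of the LiFKO list, so these values do not bear on whether a library was swapped with an input, which was not tested. Normal chow and FPC lists differed in diet, virus dose, number of libraries and version of the peak caller (HOMER 4.11 for chow, HOMER 4.4 for FPC), so these cannot be told apart. Peaks had 1 width per list, 167 bp in the FPC LiFKO list, 165 bp in LiFKO+1c and 187 bp in both chow lists. Start sites were taken from gene ends in the files on mm9 with the strand of the gene; a strand was known for 9993 of 13815 genes, and 1233 of the FPC-LiFKO sites (25%) had a nearer gene of unknown strand and were left unassigned.

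No genome of the build of the peaks (mm9) was used here, so letters are shown for promoters from the RefSeq promoter table (build GRCm38.p6), for genes whose start lay at an FPC-LiFKO site. Each line is the 150 bases before the RefSeq start on the strand of the gene, 5′ to 3′, with the palindromic E-box CACGTG in capitals. Clcn6, a chloride-proton exchanger of late endosomes, and Stx6, a syntaxin of the trans-Golgi network, are shown as promoters of high-scoring sites that hold E-boxes, and Fgf21, a hepatokine gene, as the best known metabolic gene with one. C2cd3 (a centriole protein), Cib3 (a calcium and integrin binding protein), Cln6 (an endoplasmic reticulum protein needed for export of lysosomal enzymes) and Acss2 (cytosolic acetyl-CoA synthetase) are shown because no CACGTG occurs in theirs. Thrap3 (a splicing factor) and Cdk4 (a cell cycle kinase) are shown for contrast, as promoters of sites found in every TFE3 list.

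Clcn6, chr4:148038814-148038963, strand -: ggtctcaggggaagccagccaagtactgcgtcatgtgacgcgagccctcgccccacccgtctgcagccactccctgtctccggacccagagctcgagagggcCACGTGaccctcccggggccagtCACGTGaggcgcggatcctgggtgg
Stx6, chr1:155158553-155158702, strand +: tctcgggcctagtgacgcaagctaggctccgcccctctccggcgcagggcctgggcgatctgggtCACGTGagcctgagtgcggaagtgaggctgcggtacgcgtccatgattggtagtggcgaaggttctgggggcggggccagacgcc
Fgf21, chr7:45615491-45615640, strand -: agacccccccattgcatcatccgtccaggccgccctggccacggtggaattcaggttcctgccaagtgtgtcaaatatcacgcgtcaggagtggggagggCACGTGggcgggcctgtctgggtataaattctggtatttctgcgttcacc
C2cd3, chr7:100372083-100372232, strand +: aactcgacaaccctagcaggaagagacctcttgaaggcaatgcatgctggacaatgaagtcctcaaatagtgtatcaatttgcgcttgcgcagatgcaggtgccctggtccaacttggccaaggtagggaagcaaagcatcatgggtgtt
Cib3, chr8:72212838-72212987, strand -: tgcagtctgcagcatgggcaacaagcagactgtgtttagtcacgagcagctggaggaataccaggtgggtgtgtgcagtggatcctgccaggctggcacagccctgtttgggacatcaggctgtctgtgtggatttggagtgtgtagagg
Cln6, chr9:62838635-62838784, strand +: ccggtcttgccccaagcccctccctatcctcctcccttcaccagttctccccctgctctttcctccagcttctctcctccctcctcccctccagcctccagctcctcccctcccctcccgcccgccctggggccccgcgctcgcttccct
Acss2, chr2:155517893-155518042, strand +: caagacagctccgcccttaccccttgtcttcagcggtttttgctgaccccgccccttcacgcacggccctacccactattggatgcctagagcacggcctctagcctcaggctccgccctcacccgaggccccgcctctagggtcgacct
Thrap3, chr4:126202711-126202860, strand -: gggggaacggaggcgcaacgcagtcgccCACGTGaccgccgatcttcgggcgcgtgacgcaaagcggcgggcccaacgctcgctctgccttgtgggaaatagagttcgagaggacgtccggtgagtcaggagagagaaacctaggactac
Cdk4, chr10:127063385-127063534, strand +: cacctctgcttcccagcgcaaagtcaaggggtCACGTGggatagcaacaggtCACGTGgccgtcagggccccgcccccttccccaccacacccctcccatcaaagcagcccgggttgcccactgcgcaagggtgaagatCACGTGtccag

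The first bases of the E-boxes lay 48 and 25 bases before the start of Clcn6, 85 before that of Stx6, 50 before that of Fgf21, 122 before that of Thrap3, and 118, 98 and 11 before that of Cdk4. All FPC-LiFKO promoters shown had a site centre between 250 bases before and 50 bases after the start of their gene, and the first 3 held the palindrome.

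Over all such promoters the palindrome was no more common at FPC-LiFKO sites than over the measured genes with 1 promoter in the table. Of 477 matched promoters with an FPC-LiFKO site in that window, 43 (9.01%, exact 95% binomial interval 6.60 to 12%) held CACGTG in the window of the RefSeq table, beside 820 of 7869 (10.4%) over all measured genes with 1 promoter in the table and 7.15% of all 32851 promoters in it. At sites found in LiFKO lists of both diets and in no Control list the count was 40 of 286 (14%, interval 10.2 to 18.6%), and at sites found in every TFE3 list 109 of 318 (34.3%, interval 29.1 to 39.8%). Among FPC-LiFKO sites with no peak of an excluded list within 1000 bp it was 19 of 233 (8.15%), and among those with such a peak within 200 bp 21 of 208 (10.1%).

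Other letters were searched on both strands. TCACGTG, the form preferred by MiT/TFE factors, overlaps the palindrome and occurred in 5.66% of FPC-LiFKO promoters, 6.28% of all, 9.09% of the both-diet set and 23.9% of the every-list set. TCATGTG, a variant with a changed centre, had 1.26, 2.20, 3.15 and 5.66% in the same order, and TCACNCCAC, the SREBP element, 0.419, 1.08, 0.350 and 1.57%. CCGGAAG, the ETS core, occurred in 19.3% of FPC-LiFKO promoters, 19.1% of all, 23.1% of the both-diet set and 23.6% of the every-list set. CCAAT, the NF-Y box, had 44.4, 39.6, 42.7 and 37.7% in the same order, so its share was highest at FPC-LiFKO sites and lowest at every-list sites. The GC content of the FPC-LiFKO promoters was 63.2% and that of all promoters 60.6%. These are shares of promoters with the letters in the window, not of bound sites, and sites away from start sites, the great majority, were not searched.

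**Figure D1:**
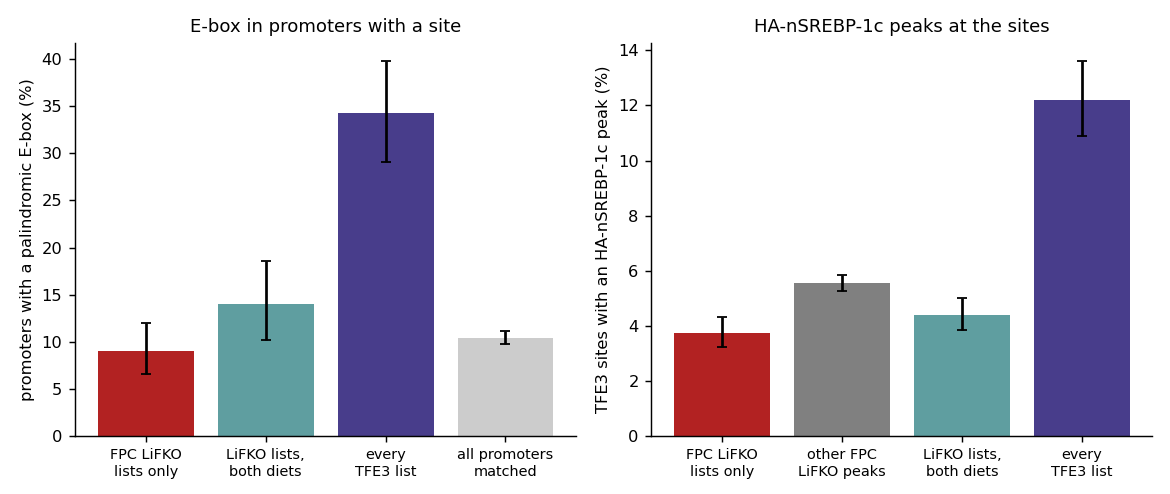
Left, share of promoters with a palindromic E-box (percent) for FPC-LiFKO sites, both-diet sites, every-list sites and all matched promoters; right, share of TFE3 sites with a peak of HA-nSREBP-1c (percent), with the other FPC LiFKO peaks in place of all promoters. Bars start at 0 and lines are exact 95% binomial intervals; every-list sites stand highest in both panels (34.3 and 12.2%), and FPC-LiFKO sites are at 9.01 and 3.73%.

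FPC-LiFKO sites were weaker than the other peaks of their list, which is a description, since the peak calls that chose them also gave the scores. Their HOMER score, the authors' merged score of a peak, had a median of 9.65 (quartiles 7.29 and 14.2, range 3.43 to 103.6), beside 12.4 for the other 22820 peaks of the list, 11.6 for the 5073 sites found with Flcn loss on both diets and 26.2 for the 2312 sites found in every list. In the LiFKO+1c list, whose scores are compared within that list only, the overlapping peaks had a median of 12 beside 18.6 for the others. Of the FPC-LiFKO sites 196 (3.98%) were in the top 10% of the list by score, beside 11.3% of the other peaks and 44.2% of the every-list sites. With the list split by score into 4 parts, they made up 23.3, 22.7, 15.3 and 9.76% of the peaks from the lowest part to the highest.

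**Figure D2:**
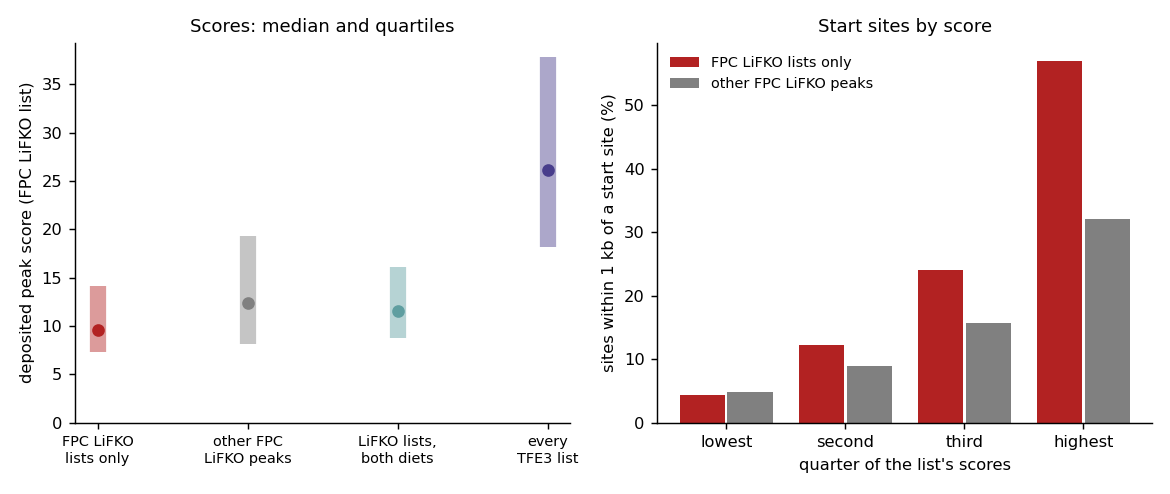
Left, deposited HOMER peak scores in the FPC LiFKO list, as median (point) and quartiles (bar), for FPC-LiFKO sites, the other peaks, both-diet sites and every-list sites; right, share of sites within 1 kb of a start site (percent) with the list split by score into 4 parts. FPC-LiFKO sites have the lowest median (9.65) and every-list sites the highest (26.2); in the highest part 57.0% of FPC-LiFKO sites lie within 1 kb of a start, against 32.1% of the other peaks.

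The 8 FPC-LiFKO sites of highest score all lay close to a start site. The first was at chr19:42055896-42056062 (mm9), 274 bp before the start of Ubtd1, a ubiquitin domain protein, with a score of 103.6, and 94.9 in the LiFKO+1c list. The next, at chr4:147412966-147413132, lay 119 bp before Clcn6 with a score of 89.7, and 119.1 in LiFKO+1c; it is the promoter with the pair of E-boxes shown above. The site at chr7:107520524-107520690, 136 bp before C2cd3, had 77.0 and 67.2. Dock9, a guanine exchange factor of Cdc42 (chr14:122196949-122197115), had 74.2, and Nipsnap3b (chr4:53025056-53025222), a mitochondrial protein, 62.0. Cacybp, which binds the ubiquitin ligase Siah1 (chr1:162142968-162143134), and Rbx1, the RING subunit of cullin ligases (chr15:81296605-81296771), had 59.6 each, and AI848100 (chr1:163806882-163807048) 57.9. All of these but C2cd3 had a peak of an excluded list within 106 bp: the gap was 70 bp at Ubtd1, 32 bp at Clcn6, 34 bp at Rbx1, 59 bp at Nipsnap3b and 9083 bp at C2cd3.

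This closeness to excluded peaks was common. Of the 4931 sites, 879 (17.8%) had the edge of an excluded peak within 200 bp, and 852 of these were near a peak of the chow LiFKO list. The chow LiFKO list was the sole list within that distance at 572 sites (11.6%), the chow Control list was within it at 286 (5.80%), and the FPC Control and Control+1c lists at 16 and 23. Within 1000 bp there were 1467 (29.8%), the median gap was 3997 bp, and 1492 (30.3%) lay more than 10 kb from any excluded peak. Sites within 1000 bp of an excluded peak had a median score of 12.9 and 35.6% of them lay within 1 kb of a start site; beyond 10 kb the median was 7.72 and the share 12.8%.

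The sites at Traf3ip1, Gigyf2 and Rab14 stood 1 bp from an excluded peak, just inside the rule. Traf3ip1 (chr1:93391097-93391263) had a score of 30.0, Gigyf2 (chr1:89223400-89223566) 28.7 and Rab14 (chr2:35056577-35056743) 25.1, with centres 65, 90 and 20 bp before the start. Just outside it, with 1 bp shared, were sites before Zfp821 (22.3), Ppp2r5c (21.9) and Rps26 (21), 51, 343 and 331 bp before the start. All 6 were promoter sites. Where sites tied in distance or shared bases those of highest score were taken, so these 6 do not compare scores or positions across the edge of the rule.

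**Figure D3:**
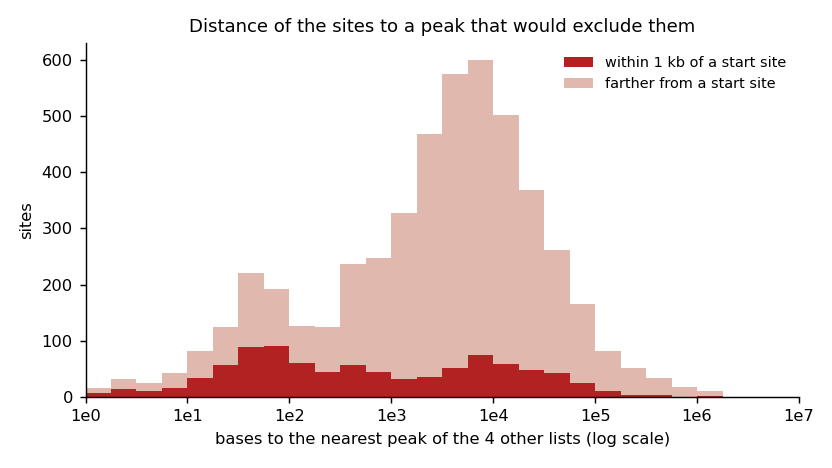
Number of FPC-LiFKO sites by distance to the nearest peak of the 4 lists that would exclude them (bases, log axis), with sites within 1 kb of a start site in dark and sites farther away in light. A group of 879 sites lies within 200 bp of such a peak, many of them at start sites, apart from the larger group around the median of 3997 bp.

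By position, 908 FPC-LiFKO sites (18.4%, exact 95% interval 17.3 to 19.5%) lay within 1 kb of a start site, beside 16.1% of the other peaks, 10.9% of both-diet sites and 22.8% of every-list sites. A further 802 (16.3%) lay between 1 and 10 kb, 1461 (29.6%) between 10 and 50 kb and 1758 (35.7%) beyond 50 kb. The median distance was 24922 bp beside 30844.5 bp for the other peaks, and 2468 sites (50.1%) lay inside a gene body. Scores fell with distance, with medians of 16.5, 10.7, 9.01 and 8.15 over these classes. In the highest of the 4 parts by score 57.0% of FPC-LiFKO sites and 32.1% of the other peaks were within 1 kb of a start; in the lowest the shares were 4.45 and 4.83%. By chromosome, FPC-LiFKO sites made up from 14.5% of the list's peaks (chromosome 16) to 19.5% (chromosome 4).

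Peaks of HA-nSREBP-1c, which the rule did not use, overlapped 184 FPC-LiFKO sites (3.73%, exact 95% interval 3.22 to 4.30%), a smaller share than of the other peaks (5.54%, 5.25 to 5.85%) and of every-list sites (12.2%, 10.9 to 13.6%). The share at both-diet sites was 4.40% (3.85 to 5%). Peaks are not replicates and the HA lists are pooled, so these intervals cover counting error only and no test was made. Of the 184, 62 were in both HA lists, 70 in the Control+1c list alone and 52 in the LiFKO+1c list alone; they made up 7.76% of the first list and 8.34% of the second. Their median TFE3 score was 11.4, and 22 (12%) lay within 1 kb of a start. In the lowest of the 4 parts by TFE3 score the share with an HA peak was 2.10%, beside 0.958% of the other peaks, and in the highest 4.73%, beside 10.7%.

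The site with the highest HA score lay 52 bp before Acss2 (chr2:155343549-155343715), with a TFE3 score of 21 and an HA score of 28.1 in the LiFKO+1c list, and no peak in the HA list of Control+1c. The Clcn6 site followed with HA scores of 26.2 in Control+1c and 25.2 in LiFKO+1c. A site 181912 bp from Glrx3, a glutaredoxin (chr7:144811160-144811326), had 21.4 and 19.5, and one 63 bp before H2-Q6, an MHC class I gene (chr17:35561649-35561815), 18.1 and 20.6. The header of the HA LiFKO+1c list names among its pooled libraries one whose name holds TFE3-WTwithS, so what that list pooled is uncertain.

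In the authors' deposited table of 96 TFE3 peaks that were higher in LiFKO+1c than in LiFKO, 6 were FPC-LiFKO sites, 4 both-diet sites and 1 an every-list site, while 70 overlapped no peak of the LiFKO list. FPC-LiFKO sites had to be in both lists, so this count is bound by the rule. The values that follow are those of the authors' deposited table. An intronic site of Rora, a clock and lipid nuclear receptor (chr9:69097459-69097625), had tag values of 3.74, 3.87 and 3.66 in LiFKO and 4.78, 4.75 and 4.90 in LiFKO+1c, with a deposited log2 fold change of 2.51 and adjusted p of 0.000418. The promoter of Per3, a period clock gene (chr4:150418895-150419061), had 5.20, 5.14 and 5.03 against 5.97, 5.73 and 5.89, with 1.23 and 0.0322. At both sites the tag values differed by less than the deposited log2 fold change. Their scale was inferred from the values, and the reason for the mismatch was not tested. All 96 peaks were selected as higher in LiFKO+1c, so the separation of libraries in both restates that selection; the first LiFKO value is that of the library whose name holds input-KO. The other sites in the authors' deposited table lay near Ube2t (log2 fold change 1.95), Dcp2 (1.45), Mreg (1.65) and Grik4 (1.67), and those at Rora and Dcp2 overlapped an HA peak.

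For expression, 1649 sites assigned to a start within 10 kb gave 1501 nearby genes, of which 872 had a site within 1 kb; 138 genes had more than 1 site. Most of these genes also had another TFE3 peak: 1231 (82.0%) had a peak of an excluded list within 10 kb of the start, and 270 had no such peak. Further peaks of the FPC LiFKO and LiFKO+1c lists near the 270 genes were not counted. The median of the mean log2 level over libraries, which is not adjusted for gene length, was 10.61 in the 1501 genes, 9.59 in the 270 and 9.78 in all genes; its part in the counts below was not tested. The libraries held hepatocyte RNA as labelled: the lowest value of any of 11 hepatocyte markers was 13.98, for Asgr1, beside a median over genes of 9.79. The summed level of those markers ranged on the log2 scale from 22.35 to 22.42 in chow Control, 21.63 to 22.04 in chow LiFKO, 22.31 to 22.36 in AMLN Control, 21.83 to 21.91 in AMLN LiFKO and 22.33 to 22.36 in DKO, so the sum, which the most abundant markers dominate, was lower in both LiFKO groups. Of the 11 markers 1 rose and 3 fell on chow, and none passed the test on AMLN diet, where their median difference was -0.00048. Fewer hepatocytes and less RNA per cell cannot be told apart in bulk tissue, and the part of this sum in the results was not tested. The summed level of 13 macrophage markers ranged from 13.68 to 15.11 over all libraries, with overlapping groups. Of the 13, 6 rose and none fell with AMLN diet in Control. With Flcn loss 1 rose on chow, and 1 rose and 2 fell on AMLN diet, and 1 fell in DKO. Of 6 erythroid markers 3 fell in LiFKO on chow and 1 on AMLN diet, and none rose. The summed level of 9 endothelial markers was 14.48 to 14.61 in AMLN LiFKO, above AMLN Control (14.02 to 14.15) and DKO (14.15 to 14.40) without overlap. On AMLN diet 1 of the 9 rose in LiFKO and 1 fell in DKO. Control livers differed between diets without overlap in 6 cholangiocyte markers (10.79 to 11.08 on chow, 12.26 to 12.84 on AMLN diet) and 9 stellate markers (12.96 to 13.62 and 13.63 to 14.28), of which 1 and 6 rose. The part of these markers in the results was not tested.

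The targeted gene Flcn itself had an FPC-LiFKO site 5122 bp before its start (chr11:59628557-59628723, score 11.4). Its log2 values on chow were 11.33, 11.55 and 11.44 in Control and 10.55, 10.14 and 10.53 in LiFKO, and on AMLN diet 10.98, 10.92 and 11.06 in Control, 10.25, 10.56 and 10.43 in LiFKO and 9.12, 9.45 and 9.91 in DKO. All LiFKO libraries lay below the Control libraries of their diet, and DKO lower still. The difference on chow was -1.03 (SE 0.17, limma adjusted p = 0.000394), and between DKO and LiFKO -0.92 (SE 0.17, limma adjusted p = 0.00242). On AMLN diet it was -0.57 (SE 0.17, limma adjusted p = 0.0257), and this call was lost without Control replicate 1 or 3 or LiFKO replicate 1 or 3, with values of -0.57, -0.53, -0.49 and -0.58.

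Tfe3 had a site 26 bp after its start (chrX:7339629-7339795, score 11.2), 22254 bp from any excluded peak. Its log2 values were 10.35, 10.57 and 10.27 in chow Control and 10.18, 10.18 and 10.54 in chow LiFKO, and 10.20, 10.30 and 10.23, 9.92, 10.02 and 10.07 and 10.20, 9.88 and 9.89 in AMLN Control, LiFKO and DKO in that order. No comparison passed the test; DKO libraries, which carry the deletion of Tfe3, did not stand below LiFKO (-0.01 (SE 0.12, limma adjusted p = 0.967)), so the summed level of this gene did not mark the deletion, and which exons the allele lacks is not given in the sources used here.

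On chow, 236 of the 1501 nearby genes rose with Flcn loss and 242 fell (15.7 and 16.1%). Over all 13815 genes 25.7% were called by limma (Benjamini-Hochberg adjusted p under 0.05), 12.5% as risen and 13.2% as fallen. Among the 9993 genes of known strand, the only ones that could be assigned a site, 12.7% rose and 14.2% fell, and near the other FPC LiFKO peaks 16.7 and 14.4% did. The called share was 31.8% near FPC-LiFKO sites and 31.1% near the other peaks. The median difference was -0.05 near FPC-LiFKO sites and over all genes. Among the 270 genes with no excluded peak within 10 kb 24 rose and 44 fell (8.89 and 16.3%). Near both-diet sites 17.2% rose and 14.4% fell, and near every-list sites 25.5% rose and 10.7% fell, with a median of 0.09. Of 4356 genes of known strand to which no FPC LiFKO peak within 10 kb was assigned, 8.26% rose and 13.7% fell. Excluded peaks and unassigned peaks near these genes were not considered.

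On AMLN diet, 186 of the 1501 genes rose in LiFKO and 172 fell (12.4 and 11.5%). Of all genes 19.7% were called, 10.1% as risen and 9.63% as fallen. The called share was 23.9% near FPC-LiFKO sites and 24.6% near the other FPC LiFKO peaks. Among genes with no excluded peak nearby 15 of 270 rose and 26 fell (5.56 and 9.63%), and near every-list sites 23.6% rose and 5.73% fell. Between DKO and LiFKO on AMLN diet, 93 of the 1501 rose and 109 fell (6.20 and 7.26%). Of all genes 11.0% were called, 5.05% as risen and 5.97% as fallen. The called share was 13.5% near FPC-LiFKO sites and 14.3% near the other FPC LiFKO peaks. Near every-list sites 2.29% rose and 17.1% fell with the added loss of Tfe3. Among the 270 genes with an FPC-LiFKO site and no excluded peak nearby 16 rose and 14 fell (5.93 and 5.19%). This comparison shares the AMLN LiFKO libraries with the preceding one, so the counts are not independent. Leaving out AMLN LiFKO replicate 3 or DKO replicate 2 took the count near FPC-LiFKO sites from 202 to 132 in each case, and calls over all genes fell to between 7.17 and 9.27% over the fits that left out 1 library.

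**Figure D4:**
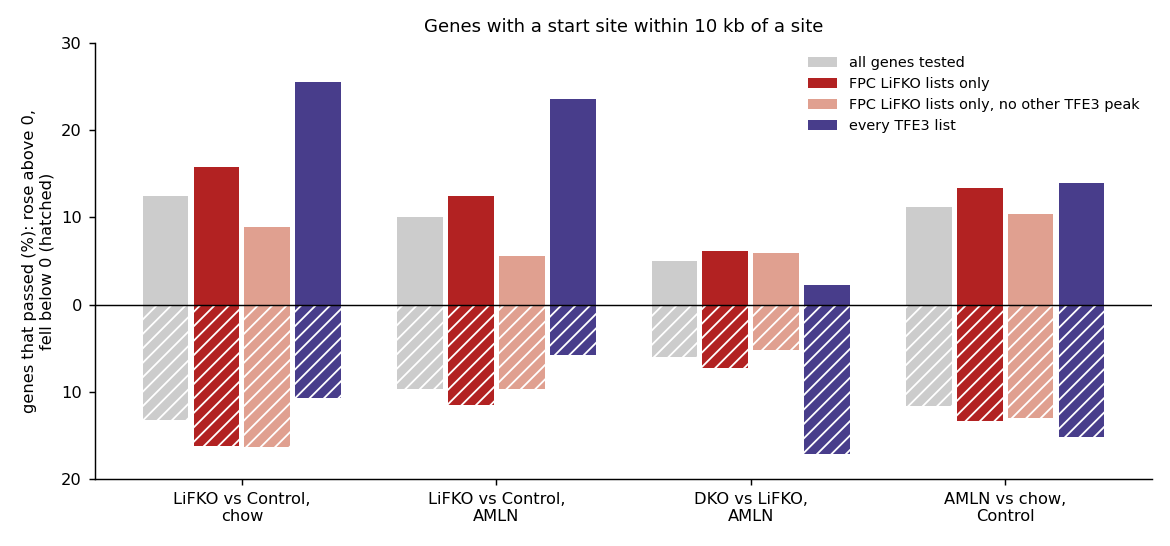
Share of genes (percent) that rose, above 0, or fell, below 0 and hatched, at a limma adjusted p under 0.05 in each comparison. Shown are all genes tested, genes near FPC-LiFKO sites, those of them with no excluded peak within 10 kb, and genes near every-list sites. On chow 15.7 and 16.1% of genes near FPC-LiFKO sites rose and fell, against 12.5 and 13.2% of all genes, while near every-list sites 25.5 and 10.7% did.

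Among the nearby genes that rose with Flcn loss were some with very large changes, all with every LiFKO library above every Control library. Genes named for the size of their change, here and below, were taken in each comparison from those whose libraries did not overlap. Their separation therefore restates the choice. Over all genes 41.9% had LiFKO and Control libraries that did not overlap on chow and 35.4% on AMLN diet, and 28.7% had DKO and LiFKO libraries that did not. Cib3, whose promoter is shown above (site 113 bp before the start, score 16.9), had log2 values of 5.83, 5.31 and 5.29 in chow Control and 12.28, 12.01 and 12.17 in chow LiFKO, a difference of 6.68 (SE 0.43, limma adjusted p = 1.28e-07). On AMLN diet it had 6.47, 7.00 and 8.14 in Control, 10.97, 11.65 and 11.09 in LiFKO and 7.04, 7.01 and 5.40 in DKO; LiFKO exceeded Control by 4.03 and DKO fell by 4.75 from LiFKO, limma adjusted p = 1.9e-05 and 9.75e-06. Each LiFKO library lay above all Control and DKO libraries of its diet. Fabp3, the heart type fatty acid binding protein (site 544 bp before the start, score 12.2), had 2.55, 2.32 and 3.73 in chow Control and 8.46, 8.51 and 9.65 in chow LiFKO. The difference was 6.01 (SE 0.69, limma adjusted p = 2.54e-05), on AMLN diet 5.99, and between DKO and LiFKO -6.63. Wdr52, a WD repeat protein of motile cilia (site 52 bp before the start, score 7.08), differed by 6.89, 6.15 and -5.41 in the same comparisons, Bex2, a brain-expressed X-linked gene, by 6.75, 7.10 and -5.81, and Sult1e1, estrogen sulfotransferase, by 6.69, 4.06 and -3.56; all of these passed the test. The sites of Bex2 and Sult1e1 lay 5728 and 6437 bp before the start with low scores of 6.65 and 6.44. The chow Control values of Cib3 and Fabp3 lay below the lower quartile of every library (8.01 to 8.03). Depth is unknown, so the size of changes from such low values is uncertain.

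Gpx3, a secreted glutathione peroxidase, had no excluded peak within 10 kb of its start. Its site lay 3711 bp after the start (chr11:54719583-54719749, score 13.1), 20886 bp from any excluded peak. Gpx3 had log2 values of 7.46, 7.51 and 7.04 in chow Control and 13.41, 14.12 and 12.56 in chow LiFKO, 8.18, 8.05 and 7.93 in AMLN Control, 12.07, 11.33 and 13.31 in AMLN LiFKO and 9.16, 8.20 and 7.57 in DKO. No LiFKO library overlapped the Control libraries of its diet, and the DKO libraries lay below all AMLN LiFKO libraries. The differences were 6.03 (SE 0.47, limma adjusted p = 7.86e-07) on chow, 4.18 (SE 0.47, limma adjusted p = 3.26e-05) on AMLN diet and -3.92 (SE 0.47, limma adjusted p = 0.000101) between DKO and LiFKO.

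Several named enzymes fell, and others of drug metabolism rose. Cyp2b10, a cytochrome P450 of drug oxidation, rose by 4.10 on AMLN diet and by 3.18 on chow, the latter lost without Control replicate 1 (2.84) or 2 (3.30) or LiFKO replicate 2 (2.93) or 3 (2.97). Sult5a1, a sulfotransferase, rose by 4.01 on AMLN diet and by 2.45 on chow, the latter lost without LiFKO replicate 1 (2.04). Among those that fell was Akr1c19, an aldo-keto reductase with no excluded peak nearby (site 4981 bp after the start, score 9.87). It had 12.60, 12.45 and 12.43 in chow Control and 9.92, 9.56 and 9.92 in chow LiFKO. On AMLN diet it had 11.24, 11.36 and 11.41 in Control, 8.40, 8.67 and 9.83 in LiFKO and 10.93, 11.46 and 11.30 in DKO. LiFKO libraries lay below Control on both diets, and DKO above LiFKO. The differences were -2.69 (SE 0.26, limma adjusted p = 6.13e-06), -2.37 (SE 0.26, limma adjusted p = 2.98e-05) and, for DKO, 2.27 (SE 0.26, limma adjusted p = 7.33e-05). Pon1, the HDL-bound paraoxonase, fell by 1.90 on chow and 1.40 on AMLN diet and was 1.06 higher in DKO than in LiFKO, and C3, the central complement protein, fell by 1.81 on chow. Ugt1a5, a glucuronosyltransferase, changed by -2.14, -2.48 and 2.64, and on AMLN diet the glutathione transferase Gstm3 by -4.74 in LiFKO and 3.49 in DKO, Ces2c, a carboxylesterase, by -2.05 and 1.23. Ugt1a5, Akr1c19, Gstm3, Ces2c and Cyp2b10 belong to families of near-identical copies, between which the counting could split reads, so their values are uncertain. Hsd3b5, a steroid dehydrogenase of male liver whose site overlapped an HA peak, had 13.07, 12.41 and 12.27 in chow Control and 8.26, 5.04 and 6.27 in chow LiFKO, with a difference of -6.06 (SE 1.45, limma adjusted p = 0.00658), and is likewise one of several close copies.

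Of the lysosomal list, 6 of 44 measured entries had an FPC-LiFKO site within 10 kb, beside 26 with any peak of the FPC LiFKO list; of all genes of known strand 15% were near an FPC-LiFKO site. In this and the following lists a site could be assigned only to genes of known strand, 32 of the 44 here. Of the 6, 4 rose and none fell with Flcn loss on each diet, and 5 fell in DKO; in the whole list 34 rose and 1 fell on each diet and 33 fell in DKO. The lists here were chosen with results of these data known, so these counts describe and do not test. Cln6 (site 132 bp before the start, score 24.5) had log2 values of 8.38, 9.34 and 8.84 in chow Control and 11.97, 12.06 and 12.28 in chow LiFKO, a difference of 3.25 (SE 0.22, limma adjusted p = 2.19e-07). On AMLN diet Cln6 had 8.98, 9.21 and 8.33 in Control, 12.26, 12.09 and 12.35 in LiFKO and 9.96, 9.99 and 9.98 in DKO, with differences of 3.39 for LiFKO and -2.26 for DKO. LiFKO libraries of Cln6 stood clear of the Control and DKO libraries. The protease Ctsl (site 3528 bp before the start) rose by 1.37 and 1.39 and fell by 1.25 in DKO, and the acid mannosidase Man2b1 (60 bp before) rose by 0.78 and 0.91 and fell by 0.79. Lamp2, a lysosomal membrane protein, rose by 0.43 on AMLN diet and fell by 0.50 in DKO; on chow its difference was 0.15 (SE 0.10, limma adjusted p = 0.316). Lipa, lysosomal acid lipase, rose by 0.73 on chow, which did not pass when chow Control replicate 1 (0.62) or LiFKO replicate 3 (0.66) was left out, and differed by 0.07 (SE 0.20, limma adjusted p = 0.86) on AMLN diet. Tmem55b, a lysosomal positioning factor, fell by 0.48 in DKO, a call lost without AMLN LiFKO replicate 1 or DKO replicate 3 (-0.41 in each).

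Beside Flcn and Tfe3, the folliculin and Rag list (13 measured) had Rragc near an FPC-LiFKO site, 5727 bp before its start. Rragc, the RagC GTPase that folliculin activates, had log2 values of 11.51, 11.76 and 11.52 in chow Control and 12.27, 12.33 and 12.41 in chow LiFKO, and 11.72, 11.69 and 11.46, 12.50, 12.24 and 12.53 and 11.44, 11.62 and 11.56 in AMLN Control, LiFKO and DKO. LiFKO exceeded Control on both diets without overlap, by 0.74 (SE 0.10, limma adjusted p = 0.000124) and 0.80 (SE 0.10, limma adjusted p = 9.62e-05), and DKO fell by 0.89 from LiFKO. Sesn2, a leucine sensor and the 1 gene of 18 in the mTORC1 list near such a site (69 bp before the start, score 19.3), had 0.10 (SE 0.33, limma adjusted p = 0.863) on chow and 0.24 (SE 0.33, limma adjusted p = 0.663) on AMLN diet, and no call.

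Of 25 autophagy genes 5 had an FPC-LiFKO site and 17 any site; near FPC-LiFKO sites 2 rose and 1 fell on chow, 3 rose on AMLN diet and 1 fell in DKO, and in the whole list 8 rose and 6 fell, 8 rose and 1 fell, and 1 rose and 7 fell. Ulk1, the kinase that starts autophagy (site 8846 bp after the start), had 12.91, 12.96 and 12.83 in chow Control and 13.31, 13.21 and 13.64 in chow LiFKO. It rose by 0.49 (SE 0.10, limma adjusted p = 0.0022) on chow and 0.58 (SE 0.10, limma adjusted p = 0.000797) on AMLN diet, and DKO fell by 0.43 from LiFKO. Ulk2, its paralog, fell by 0.48 on chow, and Nbr1, a cargo receptor with a site 598 bp after its start (score 37.3), rose by 0.37 on AMLN diet. Optn, another receptor, rose by 0.30 on each diet, calls that were lost in 4 of 6 fits without 1 library on each diet. On chow these were the fits without Control replicate 1 (0.25) or 2 (0.31) or LiFKO replicate 1 (0.30) or 3 (0.23), and on AMLN diet without Control replicate 1 (0.29) or 3 (0.22) or LiFKO replicate 1 (0.29) or 2 (0.28). Gabarapl2 had no call.

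The lipogenesis list had 8 of 20 genes near FPC-LiFKO sites, with 15 near any FPC LiFKO peak. Of the 8, 2 rose and 4 fell with Flcn loss on chow, 1 rose and 5 fell on AMLN diet, 4 rose and 1 fell in DKO, and 5 rose and none fell with AMLN diet in Control; the medians were -0.51, -1.18, 0.69 and 1.07. In the whole list 4 rose and 6 fell, 2 rose and 14 fell, 12 rose and 1 fell, and 17 rose and none fell. Srebf1, which encodes SREBP-1 (site 7434 bp before the start, score 9.01), had 13.54, 12.84 and 12.72 in chow Control and 12.33, 12.24 and 12.63 in chow LiFKO, and 14.93, 14.72 and 15.07, 13.29, 13.62 and 13.76 and 14.72, 14.74 and 14.78 in AMLN Control, LiFKO and DKO. On AMLN diet LiFKO lay below Control and below DKO without overlap. The differences on AMLN diet were -1.35 (SE 0.18, limma adjusted p = 0.000158) for LiFKO and 1.19 (SE 0.18, limma adjusted p = 0.000842) for DKO; on chow the difference was -0.63, a call lost without Control replicate 1 (-0.37) or LiFKO replicate 1 (-0.59) or 2 (-0.55). Acss2, whose site carried the highest HA score, had 12.37, 12.07 and 12.49 in chow Control, 11.34, 11.28 and 11.98 in chow LiFKO, and 12.81, 12.70 and 13.17, 11.70, 11.38 and 11.65 and 12.06, 12.43 and 12.39 in AMLN Control, LiFKO and DKO. It fell by 0.78 on chow and 1.31 on AMLN diet, and LiFKO libraries lay below Control on both diets. In DKO Acss2 was 0.72 above LiFKO, a call lost without LiFKO replicate 2 (0.62) or DKO replicate 2 (0.65) or 3 (0.67). Mid1ip1, which promotes polymers of acetyl-CoA carboxylase, fell by 1.69 and 1.40, and Acly, ATP citrate lyase, whose site overlapped an HA peak, fell by 1.05 on AMLN diet.

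Acacb, the mitochondrial acetyl-CoA carboxylase that restrains fatty acid oxidation, went the other way. Its site lay 438 bp before the start (chr5:114596023-114596189, score 20.2), overlapped an HA peak, and stood 16 bp from an excluded peak. Acacb had 11.17, 10.38 and 11.00 in chow Control, 14.93, 14.86 and 14.78 in chow LiFKO, 13.14, 13.00 and 13.16 in AMLN Control, 14.50, 14.23 and 14.86 in AMLN LiFKO and 13.32, 13.16 and 13.17 in DKO. It rose by 4.01 (SE 0.17, limma adjusted p = 4.39e-09) on chow and 1.43 (SE 0.17, limma adjusted p = 6.32e-05) on AMLN diet and fell by 1.31 in DKO, with no overlap in any of these. Fads2, a fatty acid desaturase, rose by 1.27 on chow and had -0.16 (SE 0.16, limma adjusted p = 0.54) on AMLN diet.

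Of 25 genes of fatty acid oxidation and ketogenesis, 8 had an FPC-LiFKO site; 5 rose and none fell on chow, 2 rose and 1 fell on AMLN diet, and none passed the test in DKO. In the whole list 12 rose on chow, 6 rose and 2 fell on AMLN diet, and 1 rose and 1 fell in DKO. Cd36, a fatty acid transporter (site 7991 bp after the start), had 11.24, 11.44 and 11.86 in chow Control and 14.21, 14.50 and 14.48 in chow LiFKO, 14.46, 14.39 and 13.16 in AMLN Control and 15.02, 14.63 and 14.65 in AMLN LiFKO. It rose by 2.89 (SE 0.27, limma adjusted p = 4.25e-06) on chow, where groups did not overlap, and differed by 0.76 (SE 0.27, limma adjusted p = 0.0631) on AMLN diet. Ppara, the nuclear receptor of fasting (site 621 bp after the start, score 25.5), rose by 0.48 on chow and 0.49 on AMLN diet, the latter lost without AMLN LiFKO replicate 1 (0.40). Hadha, a subunit of the mitochondrial trifunctional protein, rose by 0.62 and 0.53. Bdh1, of ketone body synthesis, rose by 0.46 on chow, a call lost without Control replicate 1 (0.39) or LiFKO replicate 3 (0.43).

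Fgf21 had a site 34 bp before its start (score 10.7), at the promoter with the E-box shown above, and its values varied between libraries of a group. They were 4.81, 5.13 and 6.22 in chow Control, 7.16, 7.43 and 7.30 in chow LiFKO, 8.79, 8.19 and 6.62 in AMLN Control, 7.01, 6.37 and 4.58 in AMLN LiFKO and 7.67, 7.49 and 6.72 in DKO. LiFKO was higher than Control on chow (1.91 (SE 0.61, limma adjusted p = 0.0321)) without overlap, and lower on AMLN diet (-1.88 (SE 0.61, limma adjusted p = 0.0419)), where the libraries overlapped. On chow the call was lost in 5 of 6 fits without 1 library, those without Control replicate 1 (1.62) or 2 (1.78) or LiFKO replicate 1 (1.98), 2 (1.84) or 3 (1.91). On AMLN diet it was lost without Control replicate 1 (-1.42) or 2 (-1.73) or LiFKO replicate 2 (-2.08) or 3 (-1.18). The difference between diets, -3.80 (SE 0.86, limma adjusted p = 0.0505), did not pass the test.

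Of 21 genes of triglyceride synthesis and storage, 7 had an FPC-LiFKO site. Of these 3 rose on chow, 2 rose and 1 fell on AMLN diet, and 1 rose and 1 fell in DKO. In the whole list 7 rose and none fell on chow, 6 rose and 4 fell on AMLN diet, and 5 rose and 3 fell in DKO. Plin3, a lipid droplet coat protein (site 2516 bp after the start, score 31.1), had 11.29, 11.76 and 11.60 in chow Control and 12.85, 13.11 and 13.10 in chow LiFKO, and 12.13, 12.34 and 11.86, 13.23, 13.27 and 13.27 and 12.13, 12.07 and 11.93 in AMLN Control, LiFKO and DKO. LiFKO exceeded Control on both diets and exceeded DKO without overlap, with differences of 1.47 (SE 0.13, limma adjusted p = 2.35e-06), 1.15 (SE 0.13, limma adjusted p = 3.26e-05) and, for DKO, -1.21 (SE 0.13, limma adjusted p = 3.78e-05). Cidec, a droplet fusion protein, rose by 3.28 (SE 0.67, limma adjusted p = 0.00242) on chow and had -1.05 (SE 0.67, limma adjusted p = 0.315) on AMLN diet. Agpat2, an acyltransferase of triglyceride synthesis whose site overlapped an HA peak, fell by 0.77 on AMLN diet, and Agpat3 rose by 0.72 on chow.

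Of 16 bile acid and sterol transport genes 5 had an FPC-LiFKO site, with 2 rises and 1 fall on chow and 1 fall on AMLN diet; in the whole list 3 rose and 5 fell on chow, and 4 rose and 2 fell on AMLN diet. The rises on chow were those of Abcb4, a phospholipid exporter (0.63), and Cyp8b1, of cholic acid synthesis (0.95). The call of Abcb4 was lost without any 1 of the 6 libraries, with values of 0.51 to 0.70, and that of Cyp8b1 without Control replicate 1 (0.82) or 2 (0.74) or LiFKO replicate 1 (0.96) or 3 (0.65). Abcb11, the bile salt export pump (site 408 bp before the start, score 9.65), had 14.91, 14.77 and 15.14 in chow Control and 13.98, 13.46 and 14.23 in chow LiFKO, with no overlap, and fell by 1.05 on chow and 0.75 on AMLN diet. Of 19 glucose genes 5 had such a site and none of these passed the test with Flcn loss on either diet. In the whole glucose list 2 rose and 4 fell on chow, and 2 rose and 3 fell on AMLN diet. A site could be assigned to 16 of 24 genes of cholesterol synthesis and 12 of 20 of respiration, those of known strand; none of these had an FPC-LiFKO site within 10 kb, although 9 of each had some FPC LiFKO peak. In the whole lists 11 cholesterol genes fell and 1 rose on chow, and all 20 respiration genes rose. Of the marker lists, 4 of the 9 hepatocyte genes of known strand had such a site, and none did of the 10 macrophage, 7 stellate, 5 endothelial, 3 cholangiocyte and 3 erythroid markers of known strand.

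At the 8 sites of highest score the nearby genes moved little with Flcn loss. Dock9 had 10.12, 10.24 and 10.17 in chow Control and 11.04, 10.71 and 10.78 in chow LiFKO, and rose by 0.66 (SE 0.13, limma adjusted p = 0.00199) on chow and 0.58 (SE 0.13, limma adjusted p = 0.00653) on AMLN diet. Nipsnap3b rose by 0.38 on chow. Ubtd1, at the first site, had 9.55, 9.24 and 9.12 in chow Control and 9.82, 9.65 and 9.61 in chow LiFKO; its rise of 0.39 held in 1 of 6 fits without 1 library, with values of 0.30 to 0.43 in the others. AI848100 rose by 0.45, which did not pass when chow Control replicate 1 (0.39) or 2 (0.43) or LiFKO replicate 2 (0.41) or 3 (0.40) was left out. Clcn6 had 7.74, 7.55 and 7.80 in chow Control and 7.84, 7.76 and 7.54 in chow LiFKO, a difference of 0.02 (SE 0.22, limma adjusted p = 0.962), and the differences of C2cd3, Cacybp and Rbx1 on chow were -0.10, -0.02 and -0.06, without a call.

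**Figure D5:**
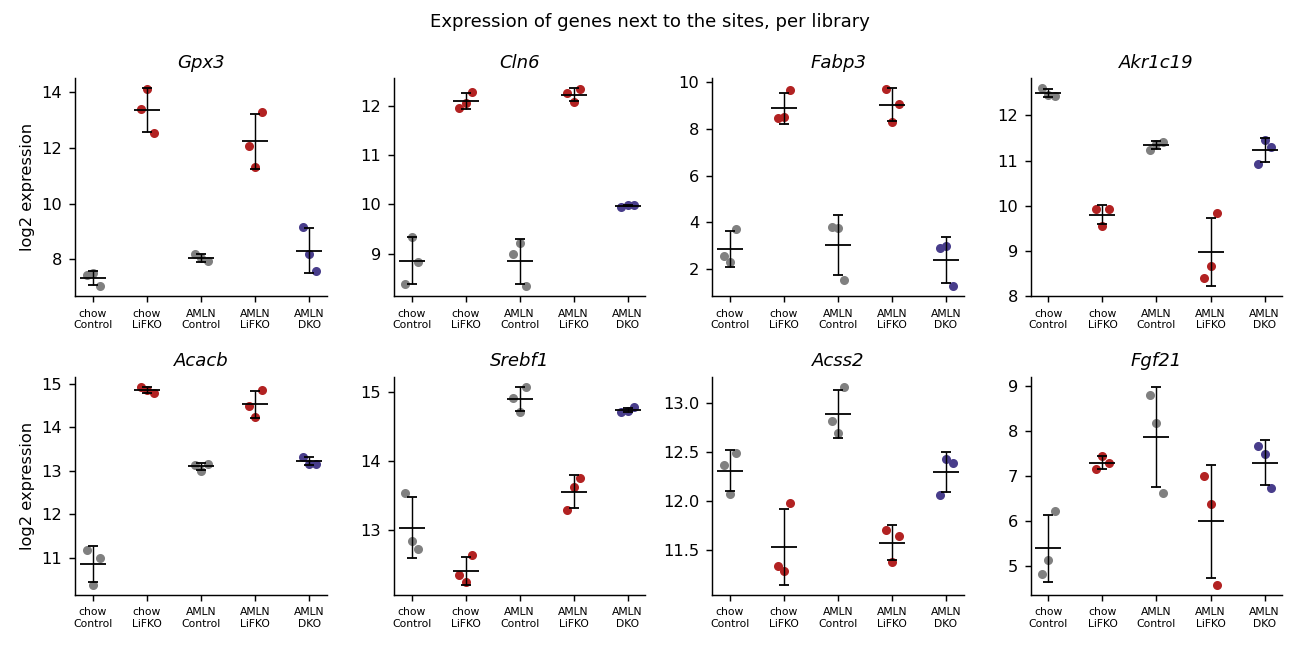
Deposited log2 expression of each RNA-seq library (points) with the group mean and SD (lines, n = 3) for 8 genes near an FPC-LiFKO site, in Control and LiFKO on chow and Control, LiFKO and DKO on AMLN diet; each panel has its own axis, which does not start at 0. Gpx3, Cln6 and Fabp3 stand higher in LiFKO than in Control and DKO, Akr1c19 and Acss2 lower, and the values of Fgf21 are spread widely within groups.

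AMLN diet in Control liver moved 200 of the 1501 nearby genes up and 200 down (13.3% each). Of all genes 22.8% were called, 11.2% as risen and 11.6% as fallen. The called share was 26.6% near FPC-LiFKO sites and 27.1% near the other FPC LiFKO peaks. Lcn2, a siderophore-binding protein of inflamed liver (site 143 bp before the start), had 8.48, 7.29 and 6.53 in chow Control and 11.31, 11.09 and 11.68 in AMLN Control, without overlap, and rose by 3.93 (SE 0.59, limma adjusted p = 0.000744); over all genes 40.9% had Control libraries of both diets that did not overlap. Cidec rose by 3.81 (SE 0.67, limma adjusted p = 0.00185) and Cdkn1a, the inhibitor p21, by 4.29 (SE 0.92, limma adjusted p = 0.00563). The count of 400 fell to 257 without chow Control replicate 2 and to 255 without AMLN Control replicate 1. The effect of Flcn loss differed between diets at 26 of the 1501 genes (1.73%), 7 with a higher and 19 with a lower effect on AMLN diet. Of all genes 1.04% were called, 0.282% higher and 0.76% lower, and near the other FPC LiFKO peaks 1.45% were called. Acacb, Cidec, Cd36 and Cgref1 were among the 19. The count ran from 4 to 56 over the 12 fits without 1 library, and calls over all genes from 0.195 to 2.42%.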

How the data were processed

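TFE3 and HA ChIP-seq peak lists and RNA-seq values of mouse liver were used as deposited. The HOMER score of each peak was deposited by the authors on pooled libraries, per the file headers, and peaks are on mm9, per the labels. The submitters' processing notes name HOMER 4.11, Bowtie2 2.2.8 and SAMtools 1.7 for chow ChIP-seq, HOMER 4.4, Bowtie2 2.2.6 and SAMtools 0.1.19 for FPC ChIP-seq, bedtools for both, STAR 2.6.0c, featureCounts and limma for RNA-seq, and Trimmomatic 0.32 (FPC ChIP-seq 0.36). For RNA-seq the authors deposited log2 values of 13815 genes. Their quartiles ranged over the 15 libraries from 8.01 to 8.03, 9.79 to 9.80 and 11.29 to 11.30, so they had been quantile normalized; the depth is unknown, and all genes were tested. The authors' table of 96 differential peaks gives tag values, log2 fold changes and adjusted p-values, which per the file headers came from DESeq2 run through HOMER. The scale of the tag values was inferred from the values as similar to log2.

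Peaks were compared by interval overlap of at least 1 bp in Python 3.11.15 with pandas 2.3.3. A gene was called nearby if a site centre lay within 10 kb of its start and no nearer start was known or possible. Of the 96 peaks with start sites from the authors' table, 70 were assigned here, 43 of them to the same gene. Promoters were matched to the RefSeq table (GRCm38.p6) by Entrez ID, failing that by symbol or synonym. Only genes with 1 promoter in that table were kept, 477 of 589. Intervals of shares are exact Clopper-Pearson intervals at 95% and cover counting error only. Differences of expression were estimated in R 4.3.3 with limma 3.58.1 from 1 model of 5 group means (15 libraries, so 10 degrees of freedom remained), with two-sided eBayes tests with trend and Benjamini-Hochberg adjustment over all genes within each comparison. SE is the moderated standard error. The script was tested on simulated data. Replicate numbers did not pair libraries: 30 pairs of same-numbered libraries had residual correlations from -0.185 to 0.237, 7 of them over 0.1.

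The sites, gene lists and tests were chosen with earlier results of these data known. Named sites are the 8 of highest score, the 4 of highest HA score, those nearest to a listed gene and those at the edge of the rule. Named genes are Flcn, Tfe3, the genes of those sites, and in each comparison up to 8 that rose and 8 that fell with the largest change, of those past the threshold and with groups that did not overlap; some that this admits are not used here. Stx6, Thrap3 and Cdk4, the genes of the authors' differential peaks, and the promoter motifs were added after values were seen. Alternatives were an overlap of at least 50% of the shorter peak, centres within 100 bp, stricter scores and gaps, fewer lists, other fits, a filter on low values, a replicate block and leaving out each library.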

Additional observations from a re-analysis of the deposited data

Results flagged for a closer look

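At 16 named genes near an FPC-LiFKO site the effect of Flcn loss differed between diets by a test of that difference in limma (the effect on AMLN diet minus that on chow, 6 libraries on each diet). At 10 of them the effect was lower on AMLN diet. Acacb had a difference of -2.58 (SE 0.25, limma adjusted p = 0.0002), with a rise of 4.01 on chow and 1.43 on AMLN diet, and this call held in all 12 fits that left out a library, as did that of Fads2, with -1.42 (SE 0.22, limma adjusted p = 0.0125). Cgref1, a cell growth regulator with a site 5 bp before its start, had -4.15 (SE 0.74, limma adjusted p = 0.0203), from 4.15 on chow to 0.00 on AMLN diet, and held in 10 of the 12. The tubulin gene Tubb2a had -3.35, Cd36 -2.12 and the retinol dehydrogenase Dhrs9 -3.90, and they held in 9, 8 and 7.

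Lcn2 had -4.02 (2.79 on chow, -1.23 on AMLN diet), Cidec -4.32 (3.28 and -1.05), the actin bundling protein Pls1 -2.79 (4.25 and 1.47) and Fam131c -2.28 (1.56 and -0.72); these 4 calls held in 3, 1, 1 and 2 of the 12. The difference between diets contains the Control libraries of both diets. Spread in these libraries that raises the diet effect in Control therefore also lowers the difference, and the diet effect in Control is no separate support.

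At the other 6 the effect was higher on AMLN diet: Nr1i3, the xenobiotic receptor CAR, had 1.10 (-0.76 on chow, 0.34 on AMLN diet), the transporters Slc17a2 and Slc19a2 0.90 and 0.82, the receptor Ephb4 0.79, the chemokine Cxcl12 0.70 and the ETS factor Gabpa 0.44. They held in 1, 5, 3, 1, 5 and 1 of the 12 fits. The libraries whose removal changed the count of such calls over all nearby genes are named with the effects of the processing.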

How the results depend on the processing

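The number of sites moved with the rule. It was 4931 as reported, 6055 with at least 50% of the shorter peak shared, 6003 with centres within 100 bp and 3464 with no excluded peak within 1000 bp. With scores of at least the median of the list (11.8) it was 1763, without the need for a LiFKO+1c peak 8211, and, as alternatives chosen after seeing the data, 7444 with the FPC Control lists unused and 13235 with the chow lists unused. The share of sites within 1 kb of a start was 36.6% at scores of at least the median and 11.1% with no excluded peak within 1000 bp. The share with an HA peak was 3.39% at an overlap of at least 50% and 1.26% in both HA lists.

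Of the 1501 nearby genes, the called number was 478 on chow, 358 on AMLN diet, 202 in DKO, 400 with diet in Control and 26 for the difference between diets. In the same order, genes with a site within 1 kb gave 264, 187, 105, 218 and 17, and sites at any distance gave 851, 641, 355, 749 and 44. Genes with no excluded peak within 10 kb, a choice made after seeing the data, gave 68, 41, 30, 63 and 2. The number of genes counted sets these numbers in part, but the called shares differed too. They were 31.8, 23.9, 13.5, 26.6 and 1.73% of the 1501 genes. Of the genes with no excluded peak they were 25.2, 15.2, 11.1, 23.3 and 0.741%, and of all genes 25.7, 19.7, 11.0, 22.8 and 1.04%. Without trend in eBayes the difference between diets had 13. Leaving out 1 library gave 375 to 402, 268 to 322, 132 to 170, 255 to 426 and 4 to 56. For the last these were 16 and 8 without chow Control replicate 1 and 2, 17, 15 and 17 without chow LiFKO replicate 1, 2 and 3, 5, 4 and 56 without AMLN Control replicate 1, 2 and 3, and 15 and 13 without AMLN LiFKO replicate 1 and 2; the cause was not tested. With the replicate block the numbers were 471, 351, 197, 385 and 24.

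Of 217 calls of named genes, 145 held in every fit that left out a library and 72 did not; over 2235 values under all alternatives 1874 kept their call, 361 lost it and none changed sign, and the replicate block ended 7 of 217. Only 7 of 15 libraries correlated best with their own replicate number, so the block is not a pairing of the design. The search for E-boxes in windows around peak centres was not run, since no mm9 genome was used here. RNA-seq depth is unknown and peak lists are pooled, so no site has a replicate error.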
